A study of Mus musculus with 12 samples.

Results

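Transporters and pumps move ions, nutrients and lipids across the membranes of every cell. Solute carriers (Slc) use gradients or exchange, ABC transporters (Abc) are driven by ATP hydrolysis, and the ATPases (Atp) include the calcium and copper pumps, the lipid flippases, the vacuolar proton pump and the mitochondrial ATP synthase. In the oviduct, the tube in which fertilization and early embryonic development take place, transport across the epithelium sets the composition of the luminal fluid, while calcium and potassium handling in the smooth muscle underlies contraction. Estrogen receptor alpha (ESR1) is a hormone-activated transcription factor present in the epithelium, stroma and muscle of this organ.

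Genes were selected on their names and on these arrays: each had 1 symbol beginning with Slc, Abc or Atp and was listed in the study as differing in an overall model of the 4 groups. The 40 genes described here, 20 Slc, 4 Abc and 16 Atp, are out of 1997 listed genes that could be located in a table of 45101 rows. The symbols Slc27a2, Slc6a2, Abcb11 and Abcc4 were left out by the rule. The part of the list used here ends, in alphabetical order, at Slc27a2. Later symbols, of Slc and of any other gene, could therefore not be located and were not analysed here. Because the overall model used the same 12 arrays and every comparison among them, the differences below are descriptions of genes chosen by their differences and carry no test. In untreated ESR1KO oviducts, where all probe sets can be named, 217 of 362 Slc genes, 27 of 45 Abc genes and 67 of 81 Atp genes on the array had a probe set with a mean log2 signal of at least 4. Signals under 4 are called near background here. For the 40 genes, counting only the probe set located for each, 37 reached that level in ESR1KO. Those located for Atp2c1, Slc10a7 and Slc26a6 did not, though 4 of 5 probe sets of Atp2c1 and 2 of 4 of Slc10a7 did. Every difference below is that of the located probe set, 1 of 8 for Slc25a5 and 1 of 7 for Atp8a1. Other probe sets of a gene were not compared between groups.

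Whole oviducts of female C57BL/6 mice were used. ESR1KO mice carried 2 deleted copies of ESR1 (ESR1-/-), with or without Zp3Cre, a recombinase driven in the oocyte that gives a deletion in all tissues of the offspring. WT mice were siblings with 1 floxed and 1 deleted copy (ESR1 flox/-), with or without Zp3Cre, so the controls themselves carried only 1 intact copy. Oviducts were taken untreated at 23 days of age, or 48 h after 5 IU of PMSG, a gonadotropin that stimulates ovarian follicles and their production of estradiol. The 4 groups, ESR1KO, WT, PMSG-treated ESR1KO and PMSG-treated WT, held 3 arrays each, and every array measured RNA pooled from 3 to 4 mice. At collection the animals given PMSG had aged by 2 more days, so that age and PMSG cannot be told apart.

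Values are log2 expression signals, on which a difference of 1 is 2-fold. The median signal of an array was between 5.63 and 5.75, and near-background signals made up 41.5% to 42.3% of each array. The probe set of Esr1, the deleted gene, read 12.92 to 13.05 in WT and 12.21 to 12.82 in PMSG-treated WT. It read 10.11 to 10.62 in PMSG-treated ESR1KO, but 10.42, 12.13 and 11.05 in ESR1KO replicates 1, 2 and 3. The array labelled ESR1KO replicate 2 thus lay closer to WT than to the other 2 ESR1KO arrays, and a second Esr1 probe set read 6.13 on it against 3.72 and 3.67. Where these probes lie relative to the deleted exon is not given in the sources used here, so the check is limited. The main counts of comparisons with untreated ESR1KO, and the differences of Atp6v1c2 and Abcc9, are therefore also given without that array. Other differences of single genes from untreated ESR1KO, those of markers and Kcnj8 among them, include it. In untreated ESR1KO the markers of ciliated, secretory and other epithelial cells, smooth muscle, stroma and endothelium all reached 4. Of 4 leukocyte markers 3 reached it (the highest at 10.70) and Cd3e of T cells did not, Adipoq of fat did not, and of 5 ovary markers Inha did, at 8.04, while Fshr, Amh, Zp3 and Gdf9 did not.

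With PMSG, the 40 genes split between the genotypes in both directions. In PMSG-treated ESR1KO, relative to PMSG-treated WT, 22 had a higher mean and 18 a lower mean, and 19 differed at least 2-fold, 11 higher and 8 lower. The arrays of the 2 groups did not overlap for 35 genes, against 19.6% of all rows. With limma, where a call needs a 2-fold difference and an adjusted p below 0.05, 11 genes were called higher (2.76% of all rows) and 7 lower (1.72% of all rows). Among the 1997 located genes, chosen like these, 28.3% were called higher and 20% lower. Nothing is read from the excess over all rows. The genes called higher were Abca5, Abca8a, Atp10b, Atp6v1b1, Atp8a1, Slc15a2, Slc16a4, Slc1a1, Slc22a21, Slc22a23 and Slc24a3, and those called lower Abcc9, Atp6v1c2, Slc10a3, Slc12a2, Slc25a18, Slc25a35 and Slc25a5. For the remaining genes a higher or lower value is that of the group means and passed no test. Of the 18 calls, 11 were kept whichever array was left out, and Atp8a1, Slc10a3, Slc16a4, Slc1a1, Slc22a23, Slc25a18 and Slc25a35 lost theirs without at least 1 array, the lowest count being 12 without PMSG-treated ESR1KO replicate 3. The median difference was 0.13 on the log2 scale, against 0.0083 over all rows and 0.36 over the 1997 located genes. The median absolute difference was 0.88 for the transporters and pumps and 1.01 for the located genes.

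**Figure D1:**
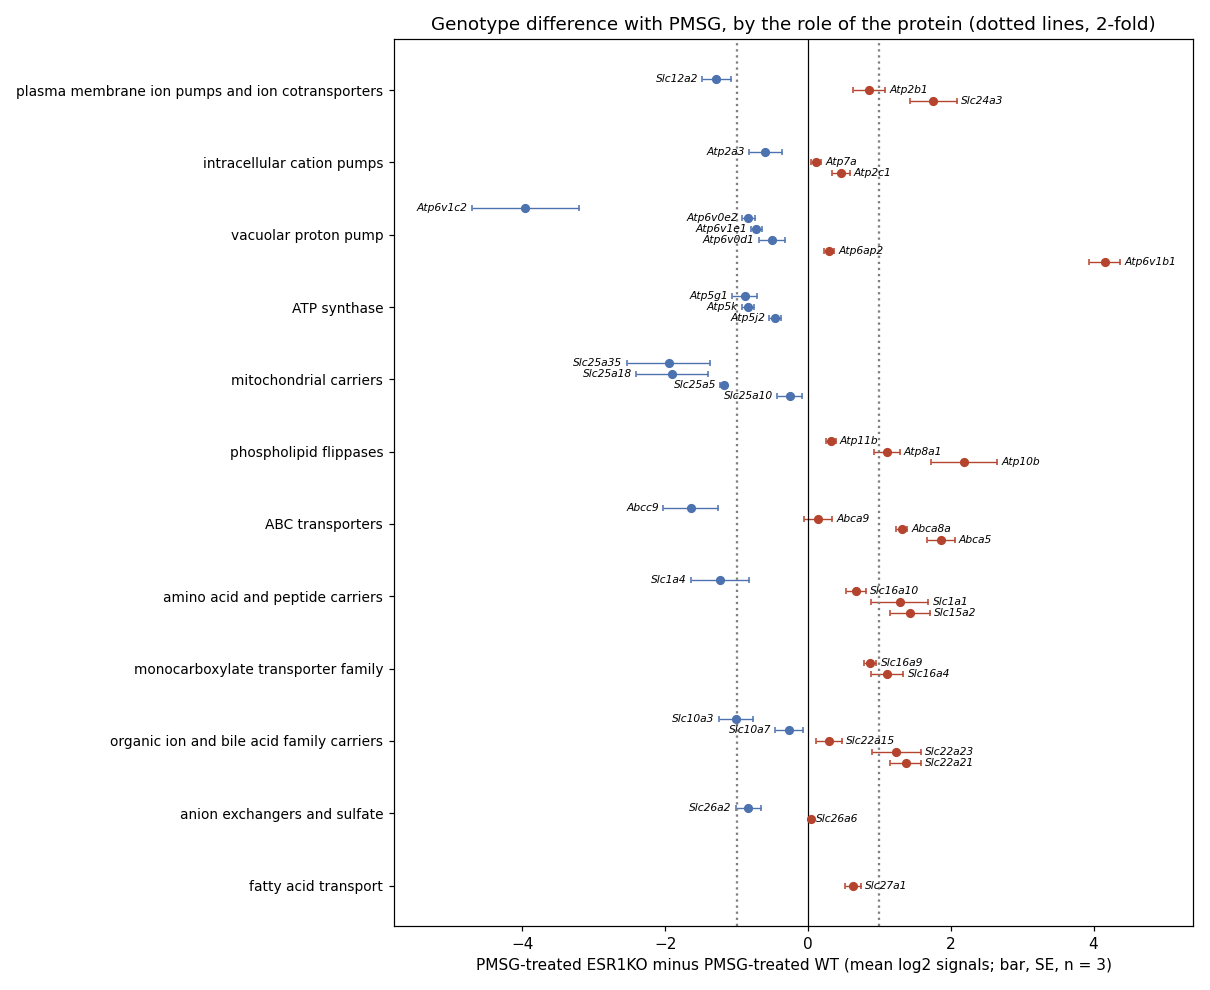
The x axis shows the difference of mean log2 signals, PMSG-treated ESR1KO minus PMSG-treated WT, for each of the 40 genes (points, with bars of 1 SE, n = 3 arrays per group), grouped on the y axis by the role of the protein. All 7 genes of the ATP synthase and the mitochondrial carriers lie left of 0, all 3 flippases lie right of 0, and the vacuolar proton pump holds both extremes, Atp6v1b1 at 4.15 and Atp6v1c2 at -3.96.

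The vacuolar proton pump (V-ATPase), which acidifies organelles and, in some epithelia, the fluid outside the cell, held the largest differences in either direction. Atp6v1b1 encodes the B1 subunit of the cytosolic V1 sector, the isoform known from acid-secreting epithelial cells. Its signals were 4.00, 4.35 and 3.89 in WT, 1.70, 1.82 and 1.84 in PMSG-treated WT, 6.32, 6.49 and 6.95 in ESR1KO, and 5.55, 6.28 and 5.99 in PMSG-treated ESR1KO. No 2 of the 4 groups overlapped, with PMSG-treated WT lowest and ESR1KO highest. The difference between PMSG-treated ESR1KO and PMSG-treated WT was 4.15 ± 0.22 (SE, n = 3 per group), a 17.8-fold higher level, and between ESR1KO and WT 2.51 ± 0.24, 5.69-fold. PMSG-treated WT was near background, where the background correction compresses differences, so the size of the first fold is uncertain. The WT mean of 4.08 lay just over the limit, so the size of the second fold is uncertain as well. In comparisons without untreated ESR1KO the gene was left untested when rows averaging under 4 were removed.

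Atp6v1c2, the C2 isoform of the C subunit of the same V1 sector, ran the other way. It read 8.03, 8.96 and 8.82 in WT, 8.29, 7.50 and 5.79 in PMSG-treated WT, 4.13, 7.46 and 5.70 in ESR1KO, and 3.18, 3.08 and 3.44 in PMSG-treated ESR1KO. Within each treatment every ESR1KO array lay below every WT array, and the PMSG-treated ESR1KO arrays were all near background. The difference with PMSG was -3.96 ± 0.75 (SE, n = 3 per group), 15.5-fold lower, a fold of uncertain size because its lower group is near background. Without PMSG it was -2.84 ± 1.01, and -3.69 without ESR1KO replicate 2, the ESR1KO array with the highest Atp6v1c2 signal. Its spread was wide in ESR1KO (SD 1.67) and in PMSG-treated WT (SD 1.28), and narrow in PMSG-treated ESR1KO (SD 0.19).

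The remaining V-ATPase genes differed less. Atp6v0e2, a small subunit of the membrane-embedded V0 sector, was lower by 1.00 ± 0.17 on the log2 scale (2.00-fold) without PMSG, where it was called, and gave -0.83 ± 0.09 (1.78-fold) with PMSG, where it was not, with no overlap of arrays in either comparison. Atp6v1e1, the widely expressed E1 subunit, gave -0.28 ± 0.17 and -0.72 ± 0.07, and Atp6v0d1, the d1 subunit of V0, gave -0.50 ± 0.11 and -0.51 ± 0.18 without and with PMSG. Atp6ap2, an accessory protein also known as the prorenin receptor, was the nearest to equal, at 0.06 ± 0.09 and 0.29 ± 0.07. Of the 6 V-ATPase genes, 4 had lower and 2 higher means in PMSG-treated ESR1KO, with a median of -0.62 and 1 gene called in each direction. The probe sets of Atp6ap2 and Atp6v1e1 are of types that can cross-hybridize, so their values are less certain.

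The promoters of Atp6v1b1 and Atp6v1c2 are shown because these genes had the largest differences in either direction. Each run is the 250 bases before the RefSeq start in GRCm38.p6, read 5′ to 3′ on the strand of the gene. Capitals mark matches on either strand to GGTCA, the core of each arm of the estrogen response element, and to GGGCGG, the GC box bound by Sp1.
Atp6v1b1, chr6:83742767-83743016, plus strand: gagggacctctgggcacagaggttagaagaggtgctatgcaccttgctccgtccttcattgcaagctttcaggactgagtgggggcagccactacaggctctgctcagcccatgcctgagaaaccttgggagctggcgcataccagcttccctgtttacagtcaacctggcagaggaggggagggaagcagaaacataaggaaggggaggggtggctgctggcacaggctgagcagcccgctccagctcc
Atp6v1c2, chr12:17324731-17324980, minus strand: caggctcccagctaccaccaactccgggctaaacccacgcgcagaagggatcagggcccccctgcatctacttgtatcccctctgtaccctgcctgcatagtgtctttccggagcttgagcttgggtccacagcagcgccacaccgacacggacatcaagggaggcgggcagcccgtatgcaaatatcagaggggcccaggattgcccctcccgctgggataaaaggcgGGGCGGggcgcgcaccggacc
The Atp6v1b1 window holds neither motif, and that of Atp6v1c2 holds 1 GC box and no GGTCA. Of the remaining V-ATPase genes, Atp6ap2 has 1 GGTCA and 2 GC boxes, Atp6v0e2 and Atp6v1e1 have 1 of each, and Atp6v0d1 has 1 GGTCA and no GC box, so that neither motif followed the direction of the difference.

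RefSeq promoters were found for 34 of the 40 genes, 39 promoters in all. The full estrogen response element, written GGTCANNNTGACC and containing GGTCA on both strands, was in 0 of the 39 and in 0.0639% of 32851 promoters in the table. The core GGTCA was in 16 of 39 (41%) against 35.2% of all promoters and 34.2% of those of protein-coding genes. The AP1 site TGANTCA was in 0 of 39 against 6.75%, and the GC box in 25 of 39 (64.1%) against 32.7% of all and 42.6% of protein-coding promoters. The median GC content was 62.4% for the promoters of the transporters and pumps and 55.6% for protein-coding promoters. These are matches of letters in a short window and describe no binding.

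Among the ion pumps and cotransporters of the plasma membrane, 2 of 3 genes had a higher mean in PMSG-treated ESR1KO. Slc24a3, an exchanger that extrudes calcium against sodium and potassium, had signals of 9.99, 9.89 and 9.89 in WT, 9.31, 9.47 and 8.63 in PMSG-treated WT, 10.81, 10.05 and 9.88 in ESR1KO, and 10.50, 11.13 and 11.05 in PMSG-treated ESR1KO. The PMSG-treated genotypes did not overlap and differed by 1.76 ± 0.33, 3.38-fold, against 0.32 ± 0.29 without PMSG, where the arrays overlapped. Its pattern was most like that of the ABC transporter Abca8a (Pearson r = 0.879 over 12 arrays, and 0.454 for deviations from the group means). Atp2b1, a calcium pump of the plasma membrane, lay just under 2-fold. It read 10.27, 10.31 and 10.47 in WT, 9.76, 10.23 and 9.81 in PMSG-treated WT, 10.42, 10.59 and 10.73 in ESR1KO, and 10.45, 11.01 and 10.90 in PMSG-treated ESR1KO. The 2 PMSG-treated groups did not overlap, and their difference was 0.86 ± 0.23, or 1.81-fold.

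Slc12a2, the basolateral cotransporter that loads secretory epithelial cells with sodium, potassium and chloride, was the only one of these 3 genes with a lower mean. After PMSG its mean was 12.20 in ESR1KO and 13.48 in WT, a 2.43-fold lower level, at -1.28 ± 0.20, with no overlap of arrays. After PMSG its mean differed by 0.70 ± 0.20 in WT and by -0.23 ± 0.19 in ESR1KO, neither called. Of the cation pumps inside the cell, Atp2a3, a calcium pump of the endoplasmic reticulum, gave -0.61 ± 0.07 without and -0.60 ± 0.23 with PMSG. Atp7a, the copper pump, gave 0.56 ± 0.10 without and 0.12 ± 0.07 with PMSG, and PMSG-treated WT stood 0.60 ± 0.10 above WT. For Atp2c1, the Golgi calcium and manganese pump, the located probe set was near background in all groups (2.51 to 3.18). The gene is not shown to be silent, as 4 of its 5 probe sets reached 4 in untreated ESR1KO.

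**Figure D2:**
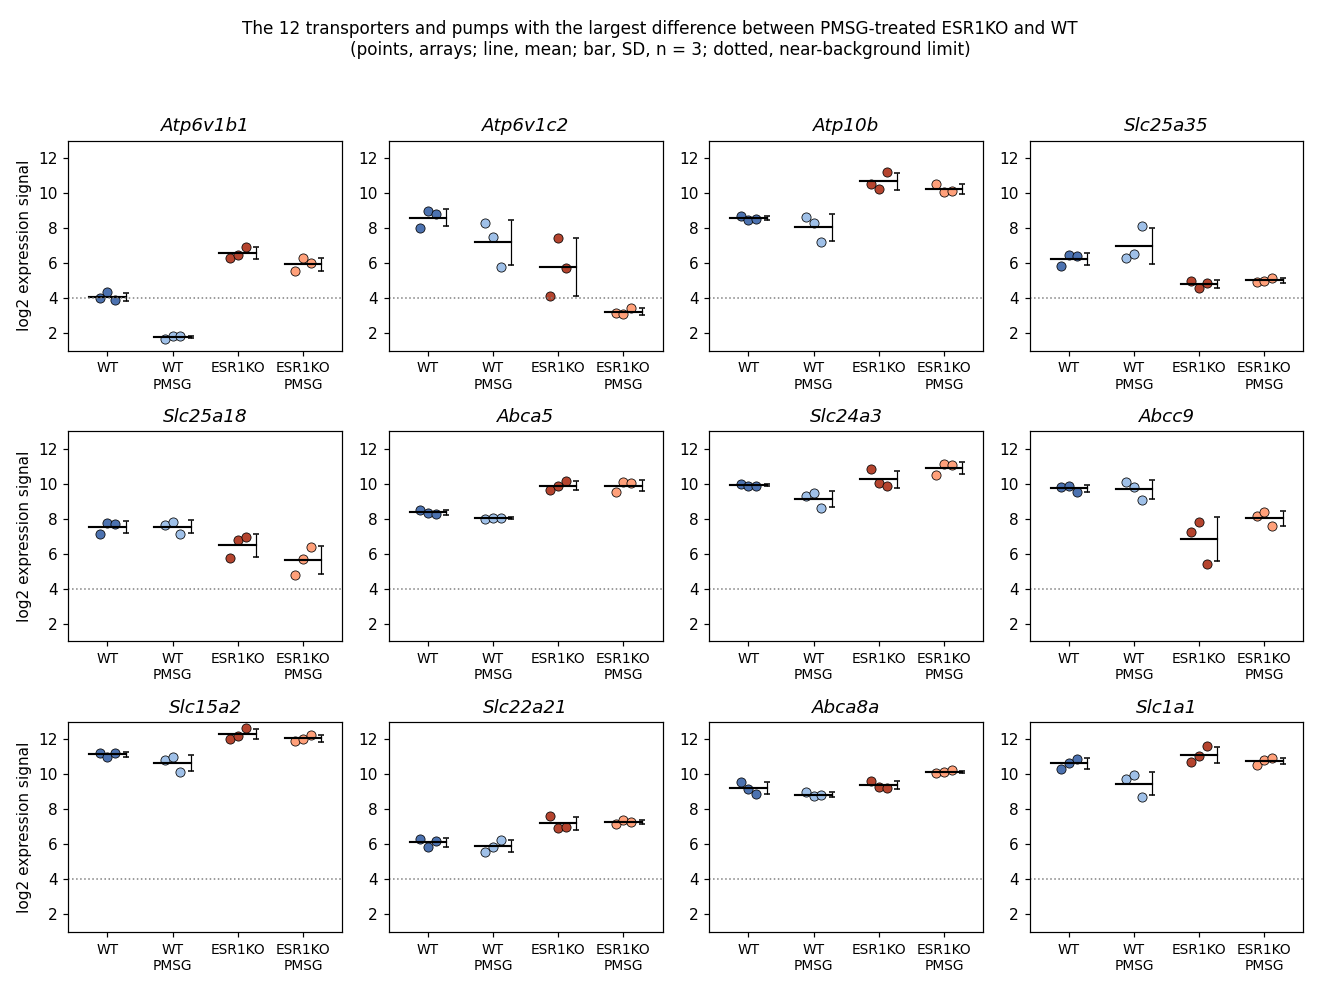
Each panel shows 1 of the 12 genes with the largest difference between the PMSG-treated genotypes, with the log2 signal on the y axis and the 4 groups on the x axis (points, arrays; lines, means; bars, SD, n = 3; dotted line, the near-background limit of 4). Atp6v1b1, Atp10b, Abca5, Slc24a3, Slc15a2, Slc22a21, Abca8a and Slc1a1 are higher in ESR1KO when both genotypes had PMSG, and Atp6v1c2, Slc25a35, Slc25a18 and Abcc9 are lower.

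All 7 genes of the ATP synthase and the mitochondrial carriers had lower means in PMSG-treated ESR1KO. The arrays did not overlap for 6 of them, against 19.6% of all rows. Nothing is read from that excess, because these genes were listed as differing in these arrays. Called were 3 of the 4 mitochondrial carriers but 0 of the 3 ATP synthase genes, against 20% of located genes called lower. The 3 ATP synthase genes, all of its membrane sector, were Atp5g1 (subunit c), Atp5j2 (subunit f) and Atp5k (subunit e). Atp5g1 lay just under 2-fold and read 11.26, 11.47 and 11.52 in WT, 11.62, 11.90 and 11.97 in PMSG-treated WT, 10.86, 11.08 and 11.40 in ESR1KO, and 10.70, 11.19 and 10.94 in PMSG-treated ESR1KO. Its difference with PMSG was -0.89 ± 0.18 (SE, n = 3 per group), 1.85-fold lower, while the untreated genotypes overlapped. Atp5k differed by -0.84 ± 0.08 and Atp5j2 by -0.46 ± 0.08, both without overlap. In WT all 3 had higher means after PMSG, by 0.41 ± 0.14, 0.29 ± 0.09 and 0.29 ± 0.11 for Atp5g1, Atp5k and Atp5j2, and in ESR1KO all 3 had lower means after PMSG, at -0.17 ± 0.21, -0.31 ± 0.08 and -0.21 ± 0.05.

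The 4 mitochondrial carriers exchange metabolites across the inner membrane. Slc25a5, an exchanger of ADP and ATP, had a mean of 9.92 in PMSG-treated WT and 8.74 in PMSG-treated ESR1KO, a difference of -1.18 ± 0.05, 2.27-fold. Slc25a35, a carrier of uncertain substrate, read 5.85, 6.49 and 6.41 in WT, 6.30, 6.51 and 8.14 in PMSG-treated WT, 5.01, 4.57 and 4.88 in ESR1KO, and 4.92, 4.99 and 5.18 in PMSG-treated ESR1KO. Both genotype comparisons were free of overlap, at -1.43 ± 0.24 and -1.95 ± 0.58, though PMSG-treated WT replicate 3 stood above its group and the difference with PMSG was -1.38 without it.

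Slc25a18, a mitochondrial glutamate carrier, read 7.11, 7.77 and 7.68 in WT, 7.66, 7.82 and 7.12 in PMSG-treated WT, 5.74, 6.81 and 6.94 in ESR1KO, and 4.80, 5.70 and 6.38 in PMSG-treated ESR1KO. All 6 ESR1KO arrays were below all 6 WT arrays. The differences were -1.02 ± 0.43 without PMSG, or -0.65 when ESR1KO replicate 1 was left out, and -1.91 ± 0.50 with PMSG. Slc25a10, the dicarboxylate carrier, gave -0.73 ± 0.20 without PMSG, and the PMSG-treated genotypes overlapped. Slc25a18 and the V-ATPase gene Atp6v1e1 are neighbours on chromosome 6, 1074 bases apart with no protein-coding gene between them. Slc25a5 and Atp5k were measured by probe sets that can cross-hybridize, and Atp5j2 by one shared by related transcripts.

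Other genes of oxidative phosphorylation, taken by symbol from the same list of the study, were compared beside them. Of 87 respiratory chain genes on the array, 21 were on the located list, which ends before symbols beginning with Uqcr, so these could not be found. Of the 21, 20 had lower means in ESR1KO when both genotypes had PMSG. The median of the 21 was -0.60, against 0.36 over all located genes. None was called higher, against 2.76% of all rows and 28.3% of located genes, and 2 were called lower, against 1.72% and 20%: Cycs (cytochrome c, -1.84) and Cox7a1 (a cytochrome oxidase subunit of muscle, -1.64, with PMSG-treated ESR1KO near background at 3.70). In PMSG-treated WT against WT, 20 of the 21 had higher means, with a median of 0.27. These rows were also chosen by the overall model, so the counts are no independent evidence of direction. In whole oviducts, fewer cells of a type and less RNA per cell cannot be told apart.

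The 3 lipid flippases, which move phospholipids or glycolipids between the leaflets of a membrane, all had higher means in ESR1KO in both comparisons, and Atp10b and Atp8a1, but not Atp11b, were called in both. Atp10b read 8.68, 8.49 and 8.53 in WT, 8.64, 8.31 and 7.18 in PMSG-treated WT, 10.52, 10.24 and 11.23 in ESR1KO, and 10.53, 10.05 and 10.11 in PMSG-treated ESR1KO. Every ESR1KO array was above every WT array, by 2.10 ± 0.30 (4.28-fold) without PMSG and 2.19 ± 0.47 (4.55-fold) with it. Atp8a1, a phosphatidylserine flippase, was just over 2-fold with PMSG. Its signals were 8.52, 8.09 and 8.00 in WT, 7.94, 8.32 and 8.05 in PMSG-treated WT, 9.26, 9.17 and 9.73 in ESR1KO, and 8.94, 9.35 and 9.34 in PMSG-treated ESR1KO, again with no overlap between genotypes. The differences were 1.19 ± 0.24 and 1.11 ± 0.18. Atp11b gave 0.54 ± 0.17 and 0.32 ± 0.07.

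Of the 4 ABC transporters, the 3 of the A subfamily, a group of lipid transporters, had higher means in PMSG-treated ESR1KO. Abca5 read 8.50, 8.35 and 8.25 in WT, 7.98, 8.05 and 8.06 in PMSG-treated WT, 9.63, 9.85 and 10.16 in ESR1KO, and 9.51, 10.11 and 10.06 in PMSG-treated ESR1KO. The genotypes were well apart on all arrays, by 1.52 ± 0.17 (2.86-fold) without PMSG and 1.86 ± 0.19 (3.64-fold) with PMSG. Abca8a read 9.57, 9.16 and 8.88 in WT, 8.99, 8.74 and 8.80 in PMSG-treated WT, 9.64, 9.27 and 9.22 in ESR1KO, and 10.10, 10.15 and 10.22 in PMSG-treated ESR1KO. Here only the PMSG-treated genotypes were apart, by 1.31 ± 0.08 (2.48-fold), and the untreated ones overlapped. Abca9 differed little between genotypes (0.13 ± 0.10 and 0.14 ± 0.20) and had a mean higher by 0.59 after PMSG in both, not called. The 3 genes lie together on chromosome 11, Abca8a and Abca9 3168 bases apart and Abca5 101094 bases further on, with Abca6 between.

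Abcc9 encodes the sulfonylurea receptor SUR2, the regulatory subunit of ATP-sensitive potassium channels in vascular and other muscle. It read 9.81, 9.87 and 9.50 in WT, 10.11, 9.83 and 9.09 in PMSG-treated WT, 7.24, 7.83 and 5.42 in ESR1KO, and 8.14, 8.39 and 7.57 in PMSG-treated ESR1KO. All ESR1KO arrays were below all WT arrays, whether treated or not. The difference was -2.89 ± 0.74 (7.43-fold lower) without PMSG, -3.39 without ESR1KO replicate 2, and -1.64 ± 0.39 (3.12-fold lower) with PMSG. Kcnj8, the pore subunit that pairs with SUR2, was also among the located genes and was lower, at -1.78 without PMSG and -1.74 with PMSG.

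Markers of vessel, muscle and stroma moved beside these genes. Of 34 markers on the array, 28 were at or over 4 in untreated ESR1KO, and only 6 were located in all 4 groups, so no summed level of a list could be compared between genotypes. Pecam1 of endothelium was lower, at -3.24 without PMSG and -1.26 with it, and Kdr at -0.51 and -0.23. Actg2 of smooth muscle was lower, at -2.26 and -1.64 and Lum of stroma at -2.44 and -2.10, while Pdgfra of stroma was higher by 1.12 and 1.49 and Lyz2 of leukocytes by 0.54 and 1.504. Their part in the differences of the transporters and pumps was not tested.

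The amino acid and peptide carriers included 3 genes with higher and 1 with lower means in PMSG-treated ESR1KO. Slc15a2, the high-affinity peptide transporter PEPT2, read 11.21, 10.97 and 11.22 in WT, 10.82, 10.96 and 10.11 in PMSG-treated WT, 12.04, 12.20 and 12.62 in ESR1KO, and 11.89, 12.01 and 12.25 in PMSG-treated ESR1KO. The genotypes did not overlap and differed by 1.16 ± 0.19 (2.23-fold) without and 1.42 ± 0.28 (2.68-fold) with PMSG. Its pattern was most like that of the flippase Atp10b (r = 0.968 over 12 arrays, and 0.758 for deviations from the group means).

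Slc1a1, a transporter of glutamate and cysteine, read 10.30, 10.67 and 10.90 in WT, 9.73, 9.97 and 8.71 in PMSG-treated WT, 10.68, 11.07 and 11.60 in ESR1KO, and 10.54, 10.82 and 10.91 in PMSG-treated ESR1KO. PMSG-treated WT lay below the other 3 groups, which overlapped one another. The difference from PMSG-treated ESR1KO was 1.28 ± 0.40, 2.44-fold, and 0.90 without PMSG-treated WT replicate 3. Slc1a4, a carrier of small neutral amino acids, went the other way at 7.30, 8.07 and 7.56 in WT, 7.30, 6.86 and 6.58 in PMSG-treated WT, 5.46, 6.56 and 5.95 in ESR1KO, and 5.38, 6.38 and 5.29 in PMSG-treated ESR1KO. Its differences, -1.65 ± 0.39 (3.15-fold) without and -1.23 ± 0.41 (2.34-fold) with PMSG, were not called, though the arrays overlapped in neither. Slc16a10, which carries aromatic amino acids, differed by 0.18 ± 0.22 and 0.67 ± 0.14, and PMSG gave -0.70 ± 0.18 in WT.

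The other 2 genes of the monocarboxylate transporter family stood on either side of the 2-fold limit. Slc16a4 read 8.04, 7.82 and 7.87 in WT, 7.73, 7.69 and 8.28 in PMSG-treated WT, 8.59, 8.60 and 8.46 in ESR1KO, and 8.79, 8.99 and 9.24 in PMSG-treated ESR1KO. Its mean was higher in both ESR1KO groups, by 0.64 ± 0.08 and, where it was called, by 1.11 ± 0.23 (2.15-fold) with PMSG. Slc16a9 read 8.19, 8.14 and 8.47 in WT, 7.60, 7.49 and 7.60 in PMSG-treated WT, 8.43, 8.21 and 7.87 in ESR1KO, and 8.28, 8.52 and 8.51 in PMSG-treated ESR1KO. Here PMSG-treated WT alone stood apart, 0.87 ± 0.09 (1.83-fold) under PMSG-treated ESR1KO.

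Carriers related to those of organic ions and bile acids were mixed. Slc22a21, a carnitine transporter, read 6.30, 5.84 and 6.21 in WT, 5.57, 5.87 and 6.27 in PMSG-treated WT, 7.64, 6.92 and 7.02 in ESR1KO, and 7.16, 7.38 and 7.26 in PMSG-treated ESR1KO. All ESR1KO arrays were higher, by 1.08 ± 0.27 (2.11-fold) and 1.37 ± 0.21 (2.58-fold). Slc22a23 differed by 0.59 ± 0.19 and 1.24 ± 0.35, and Slc22a15 by 0.90 ± 0.24 and 0.29 ± 0.18. Slc10a3, just over 2-fold, read 8.06, 8.21 and 8.07 in WT, 8.43, 8.50 and 8.63 in PMSG-treated WT, 7.47, 7.88 and 8.04 in ESR1KO, and 7.08, 7.89 and 7.56 in PMSG-treated ESR1KO, with no overlap of genotypes. Its difference with PMSG was -1.01 ± 0.24, 2.01-fold. Slc10a7 was called lower in ESR1KO, at -1.04 ± 0.16, but gave -0.26 ± 0.20 with PMSG. Its located probe set was near background in both ESR1KO groups, while 2 of its 4 probe sets reached 4 in untreated ESR1KO.

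Slc26a2, the sulfate transporter, gave -0.40 ± 0.10 without and -0.83 ± 0.18 with PMSG, and Slc27a1, a fatty acid transport protein, gave 0.43 ± 0.26 and 0.63 ± 0.12. Slc26a6, an exchanger of chloride and bicarbonate, was near background in all groups (2.90 to 3.03).

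Without PMSG, the genotypes differed less. ESR1KO had higher means than WT for 20 of the 40 genes and lower means for 20, and 13 differed at least 2-fold, 6 higher and 7 lower. The arrays did not overlap for 26 genes, against 78.5% of the 1997 located genes. With limma, 5 genes were called higher, against 9.06% of located genes, and 3 lower, against 9.01%. The 5 were Abca5, Atp10b, Atp6v1b1, Atp8a1 and Slc15a2, and the 3 were Abcc9, Atp6v0e2 and Slc10a7. This count of 8 depended on single arrays, being 2 without ESR1KO replicate 1, WT replicate 2 or WT replicate 3, and 4 without WT replicate 1 or ESR1KO replicate 3. Abca5 and Atp6v1b1 kept their calls whichever array was left out. Without ESR1KO replicate 2, 13 genes again differed at least 2-fold and 39 of 40 kept their direction. Slc10a7 and Slc15a2 lost their calls and Atp6v1c2 gained one. Without that array 26 genes did not overlap. Leaving an array out can only keep or raise this number, and the share of located genes was not computed for it.

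The genotype difference had the same direction with and without PMSG for 36 of the 40 genes. The other 4 were Atp2c1 and Slc26a6, whose located probe sets were near background, and Atp5j2 and Slc16a9, whose untreated differences were 0.04 ± 0.09 and -0.09 ± 0.19. Of 21 genes that differed at least 2-fold in either comparison, all 21 kept their direction, 11 were past 2-fold in both, 8 only with PMSG and 2, Atp6v0e2 and Slc10a7, only without. The difference was larger with PMSG for 16 of the 21, and for 15 of 21 when ESR1KO replicate 2 was left out. The 2 comparisons share no arrays, but the genes were chosen on both.

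**Figure D3:**
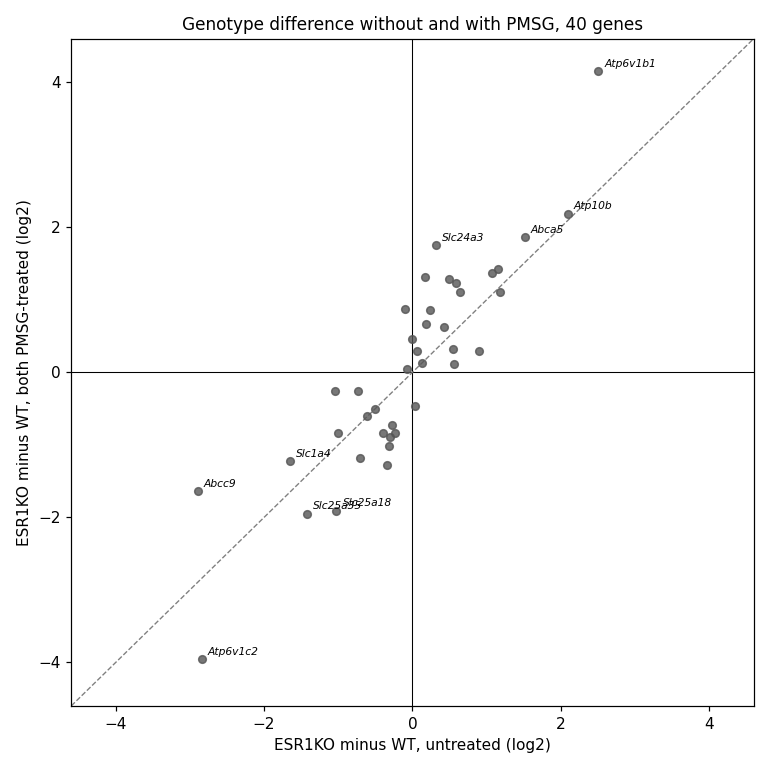
For each of the 40 genes, the x axis shows ESR1KO minus WT without PMSG and the y axis the same difference with PMSG, both as log2 differences of group means, with the genes of the largest differences named and a dashed line of equal values. Atp6v1b1 and Atp6v1c2 lie at the opposite ends, both farther from 0 with PMSG, Slc24a3 lies above the diagonal with little difference on the x axis, and Abcc9 is lower by more without PMSG.

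In WT, more of the genes had lower than higher signals after PMSG. The arrays of PMSG-treated WT and WT did not overlap for 24 genes, 10 higher and 14 lower, against 13.5% of all rows. That excess is not read, because the genes were chosen by their differences. Past 2-fold were 3, all lower: Atp6v1b1, Atp6v1c2 and Slc1a1. Their differences were -2.30 ± 0.15, -1.41 ± 0.79 and -1.15 ± 0.42 (SE, n = 3 per group), and the arrays of Atp6v1c2 overlapped. Atp6v1c2 fell short of 2-fold (-0.71) when PMSG-treated WT replicate 3 was left out. With limma, 0 genes were called higher (0.177% of all rows) and 1 lower (0.0732% of all rows), Atp6v1b1, whose call was kept whichever array was left out. Its means, 4.08 in WT and 1.79 in PMSG-treated WT, lay at and under the near-background limit, so the size of its difference is uncertain. The next largest difference was that of Slc24a3, -0.79 ± 0.26. Of those with higher means after PMSG, Slc25a35 (0.74 ± 0.61, overlapping), Slc12a2 (0.70 ± 0.20) and Atp7a (0.60 ± 0.10) stood first.

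In ESR1KO the same comparison gave 9 genes whose arrays did not overlap, 5 higher and 4 lower, against 21.5% of located genes. Without ESR1KO replicate 2 there were 11, a number that can only stay or rise with fewer arrays. The share of located genes was not computed for it. Abcc9 was higher after PMSG (1.20 ± 0.77, 1.71 without ESR1KO replicate 2 and 0.50 without ESR1KO replicate 3) with overlapping arrays. Atp6v1c2 was lower, at -2.53 ± 0.97, or -1.68 without ESR1KO replicate 2, and Slc25a18 gave -0.87 ± 0.59 with overlapping arrays. No gene was called by limma in either direction, against 0.1% of located genes higher and 0% lower. An unadjusted limma p under 0.05 was found for 10 of 40, and the share of located genes was not computed. Nothing is read from that count, because the genes were chosen on these same arrays. The PMSG difference was larger in WT than in ESR1KO for 26 of the 40 genes, and its sign was opposite in the genotypes for 21.

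**Figure D4:**
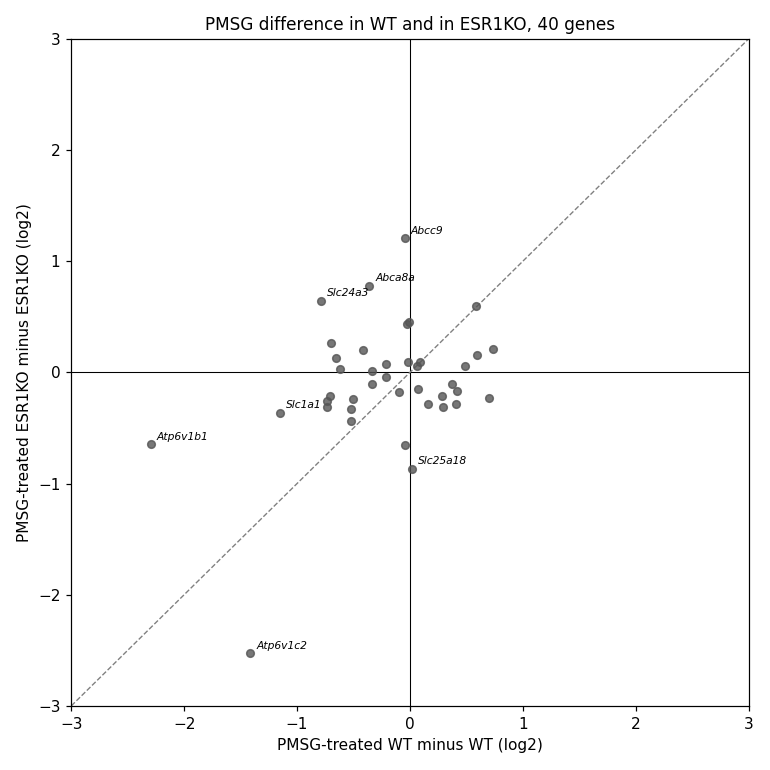
For each of the 40 genes, the x axis shows PMSG-treated WT minus WT and the y axis PMSG-treated ESR1KO minus ESR1KO, both as log2 differences of group means, with the genes of the largest differences named and a dashed line of equal values. Slc24a3 lies to the left of and above 0, Atp6v1b1 is far to the left, and Abcc9 and Atp6v1c2 mark the ends of the y axis.

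Channels and other proteins that work beside these transporters, taken by symbol from the same located genes, were counted for PMSG-treated ESR1KO against PMSG-treated WT. Located genes had been listed as differing in these arrays, and 28.3% of them were called higher and 20% lower, against 2.76% and 1.72% of all rows, so the counts are no evidence about a list. Of 84 potassium channel genes on the array, 16 were located, with 6 called higher and 7 lower. The 2 located aquaporins of 11 on the array, the water channels Aqp5 and Aqp8, were both called lower, at -4.51 and -5.02, with PMSG-treated ESR1KO near background (3.48 and 3.10). Of 16 carbonic anhydrases, which interconvert carbon dioxide and bicarbonate, 5 were located, 1 called higher (Car11, 1.53) and 3 lower (Car9, Car12 and Car13, -2.89, -3.24 and -2.33, Car9 being near background in PMSG-treated ESR1KO at 3.88). Of 28 chloride channel genes 6 were located, with 1 called in each direction, Clcn5 at 1.44 and Ano4 at -3.63. Calcium channels gave 4 of 24, with Cacna1g and Cacnb4 called higher and Cacna2d3 lower, and connexins 5 of 14, with Gjb2, near background in PMSG-treated WT at 3.42, called higher and Gja1 and Gja4 lower. Sizes against a near-background group are uncertain. None of the 14 sodium channel genes on the array was among the located genes, which is no test of change.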

How the data were processed

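RNA of whole oviducts had been hybridized to Affymetrix mouse genome arrays. The authors deposited log2 expression signals made in Partek 6.6, where probes were corrected for background by GC-RMA, quantile normalized and summarised by median polish. The table has no detection calls and holds 45101 rows, 64 of them Affymetrix controls. Depth does not apply to arrays, and 3 arrays per group limit the precision.

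Only the 3 untreated ESR1KO columns are in the order of the named probe sets, and the remaining 9 are in a common but different order (r between -0.146 and -0.123 across the 2 sets). Each gene was therefore located from the printed folds and p-values of the study's list, used only as a key. All 40 genes were found within 6.9e-05 on the log2 scale, where no second row came closer than 0.000413. The p-values of the group comparisons, genotype, PMSG and their interaction were recomputed for each untreated ESR1KO row with a fitting mean. The row nearest the printed p-values was taken, so their closeness is no independent check. The rows taken were within 0.176%, and no second row came closer than 3.08%. The printed p-value of the overall model was not recomputed. The symbol of the probe set, not used in the match, was equal for all 40 genes. Columns of fold changes and p-values in that list were not otherwise used.

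Groups were compared with limma 3.58.1 (R 4.3.3), using a mean per group, moderated variances with a trend and Benjamini-Hochberg adjustment. A row was called when it differed 2-fold or more and its adjusted p was below 0.05. Comparisons of 9 arrays were fitted on all rows. Those with untreated ESR1KO were fitted on the 1997 located rows with the prior of the 9-array fit (2.87 degrees of freedom) and their p-values adjusted for 45101 tests, so that each adjusted p is an upper bound. SE is that of the difference of 2 means. Per the study's methods the arrays of a group were pools of different mice, and p-values measure the spread between these pools.

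The genes, role groups and lists were chosen with earlier results of these data known. All 40 genes are named, and 2 further genes that met the rule are not reported here. Values on every array are given for the 12 largest differences between PMSG-treated genotypes, the 5 largest of PMSG in WT, the 3 largest of PMSG in ESR1KO, the 5 largest between untreated genotypes, and the genes on either side of 2-fold. Kcnj8, the respiratory chain genes and the other genes of the partner lists were named after their values were seen. Promoters and gene positions came from RefSeq tables of GRCm38.p6. Alternatives were no variance trend, a replicate block, unmoderated variances, a fit of the 6 arrays compared alone, a second quantile normalization, rows with a mean signal of 4 or more, calls by p alone, and each array left out in turn. The statistics and the location of rows were tested on simulated data.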

Additional observations from a re-analysis of the deposited data

Results flagged for a closer look

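For 2 genes of the ATP synthase, all PMSG-treated WT arrays lay above all WT arrays, and all PMSG-treated ESR1KO arrays below all ESR1KO arrays. The arrays are of different mice and are not paired. The difference between the genotypes' PMSG effects (ESR1KO minus WT, log2) was -0.50 for Atp5j2 and -0.60 for Atp5k, and these differences were not tested. For Slc26a6 all ESR1KO arrays lay below all WT arrays without PMSG and above them with PMSG, the effects differing by 0.111, also not tested. Slc26a6 was near background in all groups.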

How the results depend on the processing

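The number of genes called by limma was recomputed under each alternative. For PMSG-treated ESR1KO against PMSG-treated WT it was 18 and ranged from 12 (only the 6 arrays compared, or unmoderated variances) to 27 (no fold minimum), and from 12 to 17 when each of the 9 arrays of that fit was left out. For ESR1KO against WT it was 8, became 3 with only the 6 arrays compared and 3 with unmoderated variances, and ranged from 2 to 10 when each array was left out. For PMSG-treated WT against WT it was 1, became 0 when rows averaging under 4, Atp6v1b1 among them, were left out and 0 with unmoderated variances, and stayed at 1 when each array was left out. For PMSG-treated ESR1KO against ESR1KO it was 0 under every alternative run. With the replicate block the counts were 16, 7, 1 and 0 in the same order. The numbers share no source in the labels, and deviations of same-numbered arrays correlated from -0.124 to 0.356 over 9 pairs, so they were not taken as pairs. The cause of the other changes was not tested.

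Of 160 differences of single genes under 7 alternatives, 1120 values in all, 2 moved by more than the spread between arrays and no called difference reversed. The 2 belonged to Slc26a6, near background, with quantile normalization repeated. Leaving out 1 of 3 arrays cannot move a difference by more than that spread. Nor can it reverse a called difference, as the arrays compared did not overlap for any called gene. For the alternatives that left out an array, these counts were therefore fixed in advance and show no stability. Abcc9 after PMSG in ESR1KO, for example, went from 1.20 to 0.50 without ESR1KO replicate 3. Signals under 4, about 42% of each array, limit what can be read from weak genes. A gene not called against untreated ESR1KO is not shown to be equal.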
